A study of Mus musculus with 8 samples.

Results

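Mature microRNAs were compared between the undifferentiated day 0 library of MC3T3-E1 sc4 cells and the libraries of days 6, 10, 17 and 24 of osteogenic culture. The line, MC3T3-E1 sc4, is a single clone of osteoblast precursors that came from mouse calvaria, and the cells were labelled as strain C57BL/6 at passages 10 to 15. The differentiating cultures were given β-glycerol phosphate together with ascorbic acid. Each of the 5 days is 1 library made from equal RNA of 3 pooled cultures. These 5 libraries are taken from the 8 of the series. The other 3, from the skull vault of newborn female Prrx1-Cre positive mice, stand only beside them. A microRNA (miRNA) was described where it had 10 or more estimated counts in at least 2 of the 5 libraries, which 391 of 1281 mature miRNAs met. It was counted as outside the later range where day 0 lay above or below all 4 later days, both in RPM (library-scaled reads) over the whole library and in RPM with miR-21a-5p left out of the total. On both totals 52 miRNAs, or 13.3% of those tested, lay above the range, and 124, or 31.7%, lay below it.

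Day 0 is 1 library, so the undifferentiated state and that library cannot be told apart, and an exact permutation of 1 library against 4 cannot give a p below 0.2. Library totals ran from 2742368 to 4031962 counts, the deepest being day 0, and 351 to 385 miRNAs reached 10 counts per MC3T3 library. The labels name the state of each library. By column name the later libraries also carry a mark, "veh", that the day 0 column does not. The miRNA profile of all 5 libraries was that of mesenchymal cells. The 6 mesenchymal markers summed to 585500 RPM at day 0 and 300200 to 366100 RPM later. At day 0 miR-21a-5p gave most of this. The other 5 summed to 130000 RPM at day 0 and to 164000 to 188000 RPM later, with miR-21a-5p in the total. On which side of the later days that sum lay depended on the total. Without miR-21a-5p in it, miR-143-3p, the most abundant of the 5, lay above the later days, while miR-199a-3p and miR-145a-5p lay below them. All 9 embryonic stem cell markers were at 0 in all 5 libraries. Endothelial miR-126 summed to 6.199 to 19.01 RPM, against 9028 to 20320 RPM in the calvaria libraries. In bulk RNA, fewer cells holding a miRNA and less of it per cell cannot be told apart.

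A mature miRNA is a short RNA that guides an Argonaute protein to messenger RNAs, mostly through its seed, bases 2 to 8 from the 5′ end. miRNAs with the same seed form a family with overlapping targets, and neighbouring precursors are often made from 1 primary transcript. A precursor hairpin yields a 5p and a 3p arm, of which 1 usually dominates. When pre-osteoblasts reach confluence and receive osteogenic medium they leave the cell cycle, lay down collagen and later mineralise, and many miRNAs have been reported to promote or restrain this course.

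The sequences on which the comparison turns are given 5′ to 3′ from RefSeq (GRCm38.p6), with the seed in capitals. The first set holds 3 families, each with 1 seed and with members on opposite sides of the later range:
miR-99a-5p: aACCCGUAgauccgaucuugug
miR-99b-5p: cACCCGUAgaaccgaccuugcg
miR-100-5p: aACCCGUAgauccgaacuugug
miR-30a-5p: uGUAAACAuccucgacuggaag
miR-30c-5p: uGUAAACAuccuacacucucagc
miR-196a-5p: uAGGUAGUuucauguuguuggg
miR-196b-5p: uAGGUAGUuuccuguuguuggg
The second set is the family of miR-15, miR-16, miR-195 and miR-497, whose measured members all lay below the range:
miR-195a-5p: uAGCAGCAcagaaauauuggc
miR-497-5p: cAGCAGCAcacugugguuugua
miR-16-5p: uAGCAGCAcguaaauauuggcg
miR-15a-5p: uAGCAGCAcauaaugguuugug
miR-15b-5p: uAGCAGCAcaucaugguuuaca
miR-322-5p: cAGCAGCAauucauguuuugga
The third set holds the 3p arms of the miR-125b precursors, which tell the paired loci apart where the 5p arm cannot:
miR-125b-1-3p: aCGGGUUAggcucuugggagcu
miR-125b-2-3p: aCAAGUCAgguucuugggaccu
The last set holds single miRNAs with large differences at high counts, including miR-148a-3p and miR-152-3p of 1 family:
miR-21a-5p: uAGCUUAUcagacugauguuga
miR-206-3p: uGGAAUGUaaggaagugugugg
miR-148a-3p: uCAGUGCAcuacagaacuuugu
miR-152-3p: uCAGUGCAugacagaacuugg
miR-146b-5p: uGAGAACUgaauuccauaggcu
miR-335-5p: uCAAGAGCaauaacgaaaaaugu
miR-218-5p: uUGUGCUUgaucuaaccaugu

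miR-21a-5p, a growth-associated miRNA of fibroblasts and many tumours, took 45.55% of all counts at day 0 (exact binomial 95% interval 45.5 to 45.6%). It took 20.14% at day 6, 18.86% at day 10, 11.23% at day 17 and 13% at day 24, and 5.408 to 9.74% in the calvaria libraries. The day 0 share stood above all 7 other libraries. The precursor lies at chr11:86584067-86584158 (minus strand, GRCm38.p6) in an annotated exon of Vmp1. Against the counts of all other miRNAs, its day 0 level was 3.32 times that of day 6, the nearest later day (exact binomial 95% interval 3.31 to 3.33, counting error only). The edgeR fit gave a log2 difference, day 0 minus the later days, of 2.08 ± 0.28 (SE; adjusted p = 0.00226). The other arm of the precursor, miR-21a-3p, stood at 23.81 RPM at day 0 and at 17.43, 9.341, 8.629 and 8.387 RPM on the later days in order, and was also called higher (log2 difference 1.68 ± 0.39, edgeR adjusted p = 0.0237). Its call was lost on plain library totals with and without miR-21a-5p, with limma, without day 10 and without day 24. miR-21b and miR-21c were called too, at 7.565 and 6.448 RPM at day 0. Both calls were lost without day 10, without day 24, on plain library totals with miR-21a-5p, with DESeq2 and with limma. That of miR-21b was also lost on totals without miR-21a-5p. Both miRNAs share runs of 13 and 15 bases, in that order, with miR-21a-5p and hold fractional counts, so they are uncertain.

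Because 1 miRNA held this share, the total used as denominator decided how many others lay above or below the later days. With miR-21a-5p in the total, 52 miRNAs lay above and 232 below. Without it, 131 lay above and 124 below, and on values scaled by trimmed mean of M values (TMM) 119 lay above and 138 below. Asking for both totals is the stricter rule for the upper side, so the split of 52 to 124 is no comparison of directions. The 10 most abundant miRNAs took 76.63% of counts at day 0 and 61.83 to 62.43% later. With miR-21a-5p left out, the top 10 took 59.85% at day 0 and 55.28 to 59.68% later.

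**Figure D1:**
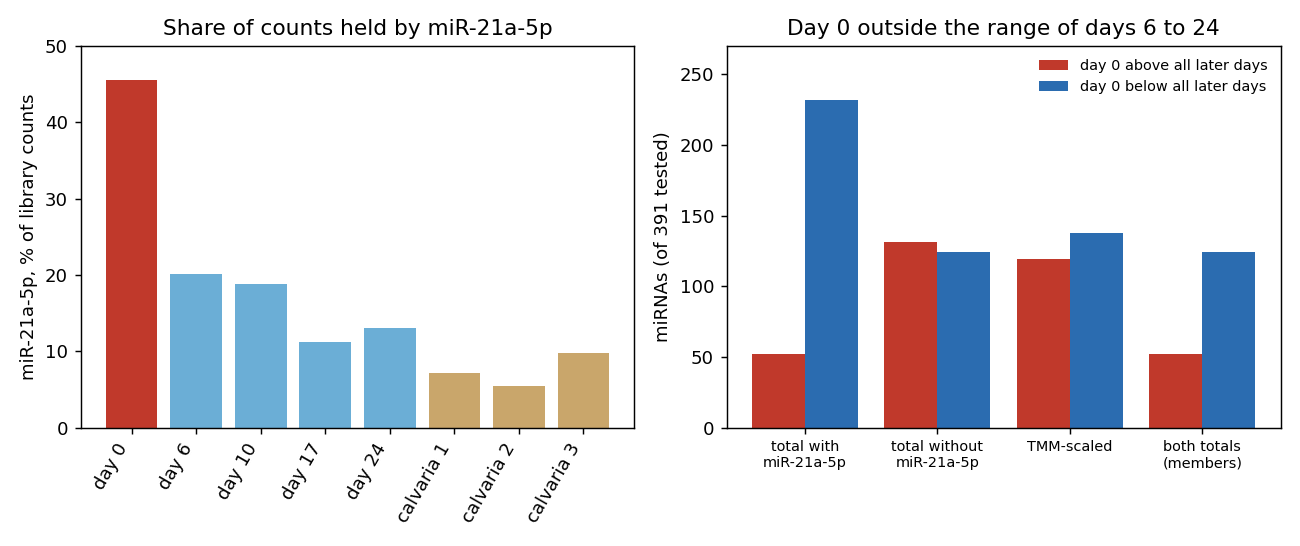
Left, bars give the percentage of each library's counts held by miR-21a-5p, with 45.55% at day 0 and 11.23 to 20.14% on the later MC3T3 days. Right, bars count the miRNAs, of 391, whose day 0 value lay above (red) or below (blue) all 4 later days, with miR-21a-5p in the total (52 and 232), without it (131 and 124), after TMM scaling (119 and 138) and on both totals (52 and 124).

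The miRNAs above the range were mostly rare, and those below included many abundant ones. Of the 52 above, 12 had a mean of 100 RPM or more over the 5 libraries, and of the 124 below, 56 did. The median mean level was 12.2 RPM above and 71 RPM below. Apart from miR-21a-5p, the miRNAs above the range took 10.07% of the remaining counts at day 0, and 5.07, 4.266, 3.407 and 3.411% on the later days. Those below took 17.63% of the remaining counts at day 0, and 30.53, 34.71, 36.41 and 35.9% later. The rule set both directions. The distance from day 0 to the nearest later day, leaving out 3 miRNAs with no day 0 count, depended on the total. Its median was 2-fold above and 1.43-fold below on totals without miR-21a-5p, and 1.33-fold above and 2.18-fold below with it. A distance of at least 2-fold on both totals was found for 12 above and, counting those with no day 0 count, 34 below. On totals without miR-21a-5p the distance was under 1.1-fold for 25 of those below. The nearest later day was day 6 for 39 of the 52 above, whereas among the 124 below it was day 24 for 40, day 17 for 32, day 6 for 31 and day 10 for 21. From day 6 to day 24, 13 of the 52 were lower at every step, as were 12 of the 124 below and 82 of all 391.

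**Figure D2:**
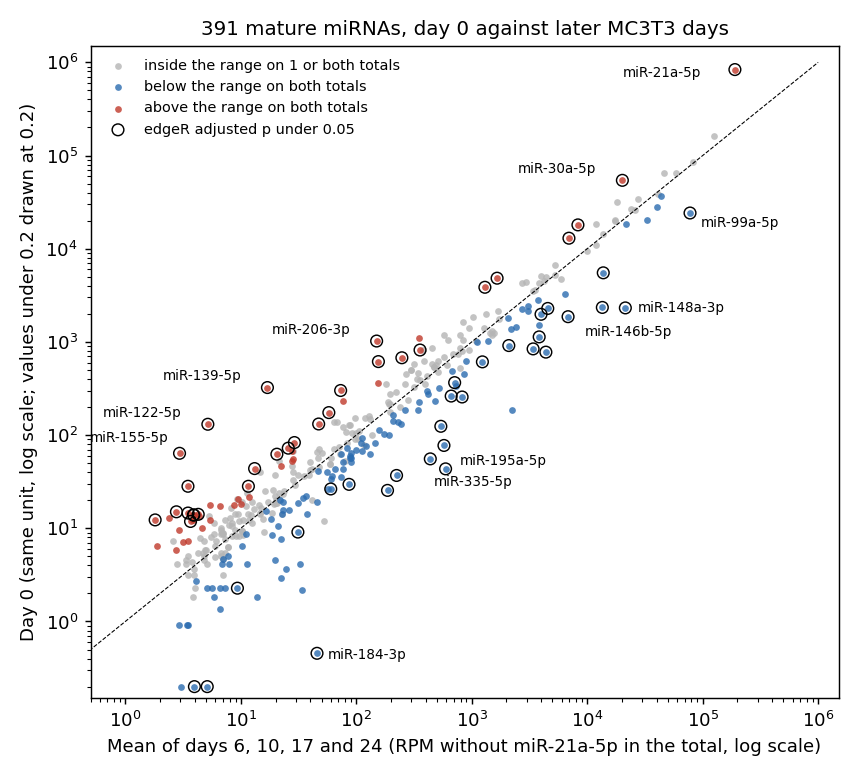
Each point is 1 of 391 miRNAs, with the mean of days 6, 10, 17 and 24 on the x axis and day 0 on the y axis, both in RPM without miR-21a-5p in the total and on log scales, with the dashed line at equal levels. Red points are the 52 above the later range and blue points the 124 below it, and circles mark the 57 called by edgeR.

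The edgeR quasi-likelihood test, with TMM factors and Benjamini-Hochberg adjustment over 391 miRNAs, called 29 miRNAs (7.42%) higher and 28 (7.16%) lower at day 0 at an adjusted p under 0.05. At an unadjusted p under 0.05 there were 68 and 65. All 57 calls fell among the miRNAs outside the range, which were chosen on the same values. The spread in this fit is that of the 4 later libraries, any change from day 6 to day 24 included, and the single day 0 library was taken to vary as they do. The median log2 difference over all 391 was -0.08 with TMM factors and -0.62 with plain library totals, under which 11 were called higher and 74 lower. These 11 were among the 29, and hold miR-582-3p and the 10 named next, so the other higher calls depend on the scaling. With limma on log2(RPM + 1) the calls were 10 and 90, and on log2(RPM + 10) 11 and 67. Without day 10 the calls fell to 11 and 7, and without day 6 they came to 54 and 55. Without day 24 there were 20 and 15 calls.

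Of the 29 higher miRNAs 10, and of the 28 lower ones 7, were called under each of the 14 alternative settings that tested them. The higher ones were miR-21a-5p, miR-30a-5p, miR-30c-2-3p, miR-206-3p, miR-615-3p, miR-139-5p, miR-155-5p, miR-122-5p, miR-147-3p and miR-877-3p. The lower ones were miR-148a-3p, miR-146b-5p, miR-199b-5p, miR-218-5p, miR-335-5p, miR-195a-5p and miR-184-3p. Not all settings tested each of them. miR-155-5p, miR-147-3p and miR-877-3p were tested under 12, and miR-122-5p and miR-139-5p under 13. Without day 10, where many calls were lost, miR-155-5p was not tested. In miR-206-3p, miR-146b-5p and miR-184-3p the later days lay close together beside their distance from day 0, whereas in miR-30a-5p the later days spanned about as wide a range as that distance.

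**Figure D3:**
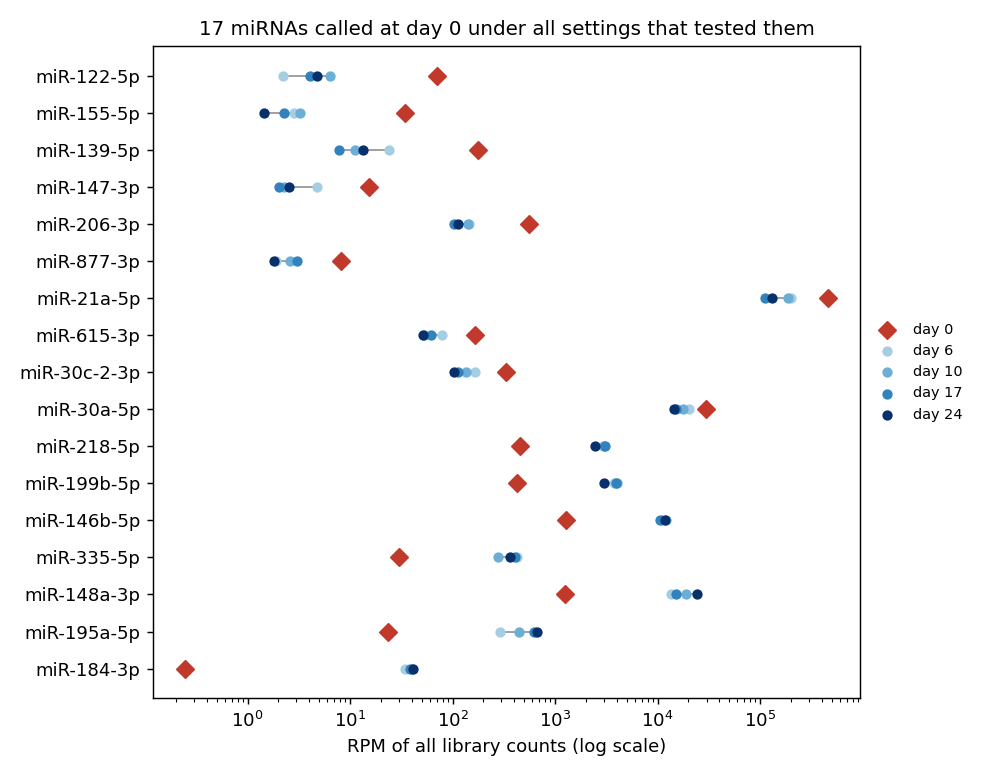
Each row is 1 of the 17 miRNAs called at day 0 under all settings that tested them, with its level in RPM on a log scale in day 0 (red diamond) and in days 6 to 24 (blue dots, darker with time; the grey line spans them). miR-21a-5p stands at 455500 RPM at day 0 against 112300 to 201400 RPM later, and miR-148a-3p at 1262 RPM against 13600 to 24490 RPM.

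Among the higher miRNAs of substantial level, miR-206-3p, known from skeletal muscle and reported to restrain osteoblast differentiation, differed most. It stood at 556.3 RPM at day 0 and at 144.3, 140.8, 104.3 and 111.9 RPM on days 6, 10, 17 and 24. Day 0 was high and the later days lay together, with a log2 difference of 2.70 ± 0.24 (edgeR adjusted p = 0.000501). The precursor is at chr1:20679010-20679082 (plus strand), in an exon of the long noncoding RNA Gm28653. miR-133b-3p, the neighbour of miR-206, had at most 1.33 counts in any of the 5 libraries. miR-1a-3p, which is known to share the miR-206 seed, ran the other way: 16.12 RPM at day 0 and 63.59, 58.94, 88.06 and 82.41 RPM later (log2 difference -1.64 ± 0.40, edgeR adjusted p = 0.0274). That call was lost without day 10 and without day 24.

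miR-30a-5p, of a family reported to target osteogenic factors such as Runx2 and Smad1, stood at 29510 RPM at day 0 and at 20310, 17580, 15050 and 14410 RPM later. All later libraries were below day 0 (log2 difference 1.36 ± 0.22, edgeR adjusted p = 0.00576). miR-30c-2-3p, the minor arm of a neighbouring precursor, stood at 334.8 RPM at day 0 and at 166.1, 136.2, 113.9 and 102.5 RPM later (log2 difference 1.92 ± 0.25, edgeR adjusted p = 0.00201). The precursors lie on chromosome 1, at chr1:23272269-23272339 for Mir30a and chr1:23291701-23291784 for Mir30c-2 (both plus strand). The main arm miR-30c-5p is made from this precursor and from Mir30c-1 on chromosome 4, in an intron of Nfyc. miR-30c-5p lay below the range, at 1161 RPM at day 0 and 3326, 2373, 2192 and 2291 RPM later, without passing the test. The ratio of miR-30a-5p to miR-30c-5p was 25.4 at day 0 and 6.11, 7.41, 6.87 and 6.29 later. Both carry fractional counts. miR-30b-5p, also of this family, lay below the range as well, without passing the test. miR-30e-5p and miR-30d-5p, which have the same family seed, lay within the range on 1 or both totals.

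miRNAs encoded in the Hox clusters, the gene arrays that pattern the body axis, lay above the range in 4 of 6 measured cases and below it in 1, against 13.3% above and 31.7% below over all miRNAs. Their median log2 difference was 0.91, against -0.08 over all 391, and 2 were called higher, against 7.42% over all. miR-615-3p stood at 163.9 RPM at day 0 and at 79.54, 52.5, 61.67 and 51.42 RPM later (log2 difference 1.98 ± 0.25, edgeR adjusted p = 0.00201). miR-10a-5p stood at 7061 RPM at day 0 and at 5968, 6076, 5620 and 5650 RPM later, a narrow margin (log2 difference 0.82 ± 0.22, edgeR adjusted p = 0.0409). This call was lost without day 10, day 17 or day 24, on plain library totals, with upper quartile size factors, without the count filter and with limma. Its other arm, miR-10a-3p, also lay above the range, at 25.55 RPM against 13.85 to 23.86 RPM, without passing the test. miR-10b-5p, which shares its seed, stood at 10.42 RPM at day 0 and 5.329 to 11.76 RPM later.

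miR-196a-5p and miR-196b-5p share their seed and differ at 1 position, and lay on opposite sides. miR-196a-5p stood at 125.8 RPM at day 0 and at 119.5, 66.67, 38.58 and 26.62 RPM later, so day 0 and day 6 were close and each later day was lower than the one before (edgeR adjusted p = 0.0947). miR-196b-5p, from chr6:52230081-52230165 (minus strand) in an exon of Hoxa9, stood at 33.94 RPM at day 0 and at 148.3, 107.9, 79.43 and 99.18 RPM later (edgeR adjusted p = 0.0741). Neither passed the test. Their ratio was 3.71 at day 0 and 0.806, 0.618, 0.486 and 0.268 later. Both hold fractional counts, and reads shared by such close sequences could have been divided between them.

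Further abundant miRNAs called higher were miR-99b-5p, described below, miR-7a-5p, miR-92a-3p and miR-128-3p. miR-7a-5p, which is bound by the circular RNA Cdr1as in brain, stood at 2629 RPM at day 0 and at 1947, 1012, 1356 and 1235 RPM later (log2 difference 1.48 ± 0.29, edgeR adjusted p = 0.0147, lost on plain library totals and with limma). miR-92a-3p, of the growth-promoting miR-17-92 cluster, stood at 2100 RPM at day 0 and at 1722, 976.9, 805 and 812.8 RPM later (log2 difference 1.53 ± 0.35, edgeR adjusted p = 0.0225, lost without day 10 or day 24, on plain library totals with and without miR-21a-5p and with limma). In both, day 6 lay nearest to day 0. Of the 15 measured arms of miR-17-92 and its paralogs, 3 lay above (miR-92a-3p, miR-92a-1-5p and miR-18a-3p), 1 below (miR-19b-3p) and 11 on neither side, with a median log2 difference of 0.31. The shares of 20% above and 6.67% below stand beside 13.3% and 31.7% over all miRNAs. The list's summed level was 5484 RPM at day 0 and 9115, 6309, 5127 and 4210 RPM later, so that day 0 lay inside the later range. miR-128-3p stood at 445.7 RPM at day 0 and at 368.2, 278.6, 275.4 and 271.7 RPM later (log2 difference 1.13 ± 0.23, edgeR adjusted p = 0.0169). This call was lost without day 10, on plain library totals and with limma.

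miR-148a-3p and miR-152-3p, which share a seed and are known to target the DNA methyltransferase Dnmt1, were lower at day 0. miR-148a-3p stood at 1262 RPM at day 0 and at 13600, 18990, 15090 and 24490 RPM on days 6, 10, 17 and 24. The lowest later day was 10.8 times the day 0 level in RPM and 7.34 times on totals without miR-21a-5p (log2 difference -3.31 ± 0.49, edgeR adjusted p = 0.00365). miR-152-3p, from an intron of Copz2 at chr11:96850393-96850465 (plus strand), stood at 3002 RPM at day 0 and at 11610, 11260, 11080 and 12340 RPM later, a flat level after day 0 (log2 difference -1.41 ± 0.26, edgeR adjusted p = 0.0126, lost without day 10). miR-148b-3p, the remaining measured member, stood at 286.3 RPM at day 0 and 441.4 to 1007 RPM later, and was within the range once miR-21a-5p was left out of the total. The seed as a whole summed to 4550 RPM at day 0 and to 26220, 30860, 26610 and 37400 RPM later.

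miR-146b-5p, a regulator of Traf6 and Irak1 in innate immune signalling, stood at 1276 RPM at day 0 and at 10980, 12040, 10510 and 11870 RPM later. The later days differed little among themselves (log2 difference -2.61 ± 0.30, edgeR adjusted p = 0.00131). The precursor lies in an intron of Mfsd13a at chr19:46342762-46342870 (plus strand). miR-146a-5p, which has the same seed and differs at 2 positions, was rare, at 1.984 RPM at day 0 and 10.93, 13.69, 28.93 and 31 RPM later. It lay below the range without passing the test.

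miR-335, encoded in an intron of the imprinted gene Mest (chr6:30741299-30741396, plus strand) and reported to promote osteoblast differentiation through Dkk1, was lower in both arms. miR-335-5p stood at 30.26 RPM at day 0 and at 423.7, 275.4 and 409.4 RPM on days 6, 10 and 17, with day 24 between those (log2 difference -3.05 ± 0.36, edgeR adjusted p = 0.00131). miR-335-3p stood at 42.16 RPM at day 0 and at 795.1, 475.4, 263.7 and 365.4 RPM later (log2 difference -2.92 ± 0.59, edgeR adjusted p = 0.0169, lost without day 10). After day 0 the 5p arm had no steady course, and the 3p arm was highest at day 6.

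miR-218-5p, encoded in introns of Slit2 and Slit3 and reported to target inhibitors of Wnt signalling, stood at 458.1 RPM at day 0 and at 2915, 2982, 3094 and 2427 RPM later (log2 difference -2.09 ± 0.29, edgeR adjusted p = 0.00235). miR-199b-5p stood at 423 RPM at day 0 and at 3769, 4018, 3922 and 3006 RPM later (log2 difference -2.57 ± 0.31, edgeR adjusted p = 0.00137). In both, all later days lay at a like level, far from day 0. The related miR-199a-5p, a marker of mesenchymal cells, stood at 18560 RPM at day 0 and 20440 to 24740 RPM later, so that it lay below the later days in RPM and above them without miR-21a-5p in the total. The 3p arms of miR-199a and miR-199b have identical sequences and kept a ratio of 2 to 2.01 in all 5 libraries, so their reads cannot be assigned.

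miR-708-5p was lower at day 0 as well, at 616.3 RPM against 2366, 3212, 4191 and 3225 RPM (log2 difference -1.86 ± 0.40, edgeR adjusted p = 0.0203, lost without day 10 or day 24). miR-6243 stood at 139.6 RPM at day 0 and at 593.2, 795.6, 617.5 and 767.2 RPM later (log2 difference -1.78 ± 0.36, edgeR adjusted p = 0.0169, lost without day 10). miR-210-3p, known to be induced when oxygen is low, stood at 100.2 RPM at day 0 and at 356.5, 1308, 3311 and 2673 RPM later. Day 0 was lowest, and the later days themselves spanned a wide range (log2 difference -3.74 ± 1.22, edgeR adjusted p = 0.0745).

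The miR-15, miR-16, miR-195 and miR-497 family is known to restrain the cell cycle through cyclins and their kinases. All 6 measured members lay below the later range, where 31.7% of all miRNAs lay, and 2 were called lower, against 7.16% of all, with a median log2 difference of -0.985 against -0.08 over all miRNAs. The family's seed summed to 437.5 RPM at day 0 and to 1817, 1567, 1883 and 1790 RPM later. miR-195a-5p stood at 23.64 RPM at day 0 and at 290, 442.1, 627.3 and 660.9 RPM later, higher at each step (log2 difference -3.90 ± 0.64, edgeR adjusted p = 0.00624). miR-497-5p stood at 13.89 RPM at day 0 and at 98.87, 117.9, 212.2 and 207.1 RPM later (log2 difference -2.99 ± 0.62, edgeR adjusted p = 0.0169, lost without day 10). Their precursors lie together at chr11:70234717-70235135 (plus strand), and the third measured arm of the pair, miR-195a-3p, was called lower too, though not without day 10. The other members did not pass the test. miR-16-5p stood at 245.9 RPM and then at 912, 620.8, 710.3 and 631.4 RPM. miR-15b-5p stood at 55.06 RPM and then at 240.8, 179.7, 128.4 and 92.99 RPM, and on totals without miR-21a-5p its nearest later day was 1.06 times day 0. miR-15a-5p stood at 21.83 RPM at day 0 against 38.29 to 56.09 RPM.

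miR-322-5p links this family to a cluster on the X chromosome (chrX:53047997-53054349, minus strand) that holds the precursors of miR-322, miR-503, miR-542 and miR-450. All 9 measured arms of these precursors lay below the range, against 31.7% of all miRNAs. No other of the 30 clusters examined had so many arms outside on the same side. Of these 9 arms, 3 were called lower, against 7.16% of all miRNAs. miR-351 was not among the precursors grouped here. Its 5p arm lay below the range and its 3p arm on neither side. miR-322-3p stood at 497.8 RPM at day 0 and at 2166, 1893, 1477 and 1449 RPM later (log2 difference -1.26 ± 0.30, edgeR adjusted p = 0.0274). miR-542-3p stood at 199.2 RPM and then at 629.7, 668, 555.5 and 528.7 RPM (log2 difference -1.03 ± 0.28, edgeR adjusted p = 0.0416). miR-450a-5p stood at 332.6 RPM and then at 956.1, 1001, 1244 and 970 RPM (log2 difference -1.11 ± 0.30, edgeR adjusted p = 0.0417). These 3 calls were lost without day 10, without day 24 (that of miR-450a-5p also without day 17, and those of miR-450a-5p and miR-542-3p with a filter of 100 counts) and on totals without miR-21a-5p, where day 0 still lay below all later days. Arms of 1 cluster may come from 1 transcript and are not independent observations.

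**Figure D4:**
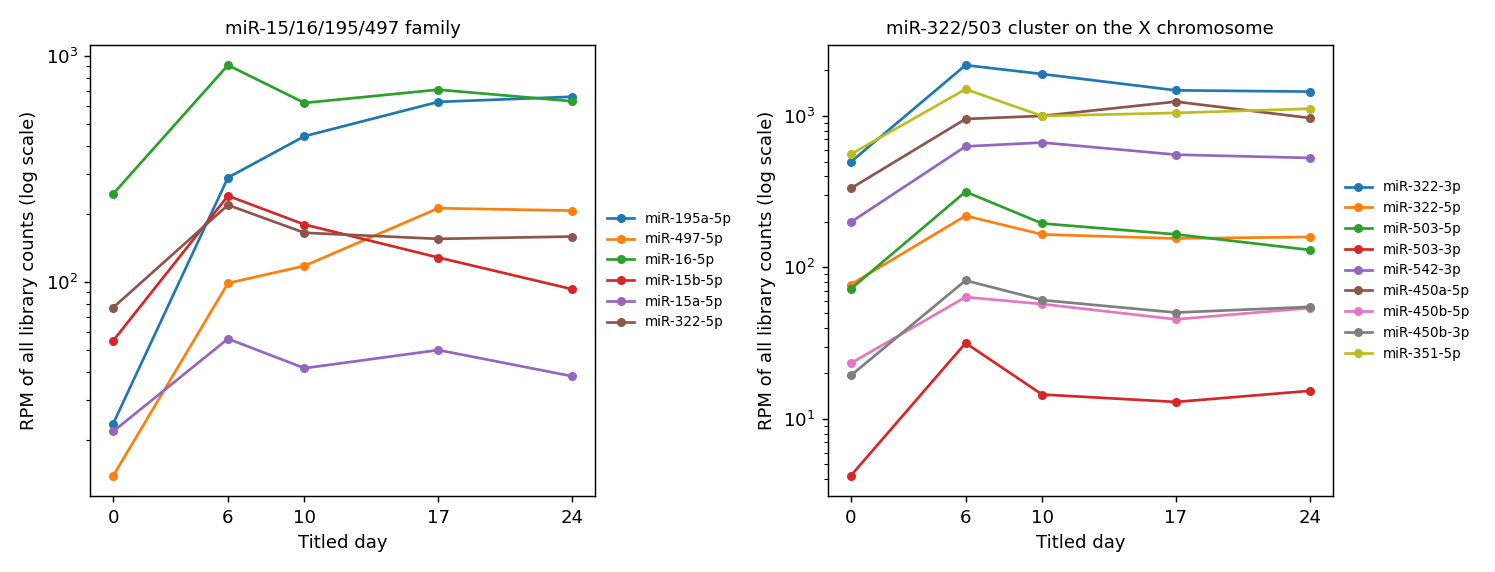
Lines give RPM on a log scale by titled day, 1 library per day, for the 6 measured members of the family of miR-15, miR-16, miR-195 and miR-497 (left) and for arms of the miR-322 cluster with miR-351-5p (right). All lines start at their lowest point at day 0, and miR-195a-5p goes on from 290 RPM at day 6 to 660.9 RPM at day 24.

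The mouse genome holds 3 related clusters that each join a miR-99 or miR-100 precursor, a let-7 precursor and a miR-125 precursor. These clusters, set side by side after their values were seen, had arms on different sides of the later days. In the cluster of miR-99a, let-7c-1 and miR-125b-2, all 5 measured arms lay below the range and 3 were called lower. In that of miR-100, let-7a-2 and miR-125b-1, 3 of 4 arms lay above and none below, and 1 was called higher. In that of miR-99b, let-7e and miR-125a, 3 of 6 lay above and none below, and all 3 were called higher. Over all miRNAs 31.7% lay below and 13.3% above, and 7.16% were called lower and 7.42% higher. In RPM over the whole library, the miR-99a cluster summed to 28330 at day 0 and 68490 to 123200 later. The miR-99b cluster summed to 13250 RPM at day 0 and 9398 to 12640 RPM later. The miR-100 cluster summed to 35700 RPM at day 0, inside the later 31790 to 45120 RPM. let-7c-5p is also made from a second precursor, and miR-125b-5p and let-7a-5p, made from several clusters, were not assigned to one.

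miR-99a-5p stood at 13160 RPM at day 0 and at 42320, 59530, 82000 and 80010 RPM later (log2 difference -1.80 ± 0.45, edgeR adjusted p = 0.0321). miR-99b-5p stood at 9811 RPM at day 0 and at 8236, 7429, 5963 and 6132 RPM later (log2 difference 1.05 ± 0.23, edgeR adjusted p = 0.0219). The former call was lost without day 10 or day 24, and the latter without day 10, day 17 or day 24, on plain library totals and with limma. The family is known to act on mTOR signalling. miR-99a-5p was 1.34 times miR-99b-5p at day 0 and 5.14, 8.01, 13.8 and 13 times on the later days. miR-100-5p, the third member, stood at 35090 RPM at day 0 and at 44540, 44520, 35140 and 31620 RPM later, within the later range. Without miR-21a-5p in the total it stood at 64440 RPM at day 0, above the later days at 55770, 54870, 39590 and 36340 RPM. The family's summed level was 58060 RPM at day 0 and 95100 to 123100 RPM later. Without miR-21a-5p in the total the sum was 107000 RPM at day 0 and 119000 to 139000 RPM later, a smaller difference.

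Most minor arms lay on the side of their cluster's other arms outside the range, but miR-125a-3p lay on neither side. miR-99a-3p stood at 4.96 RPM at day 0 and at 24.08, 22.22, 33.75 and 25.53 RPM later (log2 difference -1.87 ± 0.44, edgeR adjusted p = 0.0264, lost without day 10 or day 24). miR-99b-3p, with the same seed as miR-99a-3p, stood at 368.1 RPM at day 0 and at 269.1, 182.6, 182.7 and 196.2 RPM later (log2 difference 1.38 ± 0.25, edgeR adjusted p = 0.0103, lost on plain library totals and with limma). let-7e-3p stood at 39.43 RPM at day 0 against 19 to 26.94 RPM later and was called higher (edgeR adjusted p = 0.0169). Its call was lost without day 10, on plain library totals and with limma. let-7c-1-3p stood at 19.72 RPM against 32.86 to 72.89 RPM, without passing the test. let-7a-2-3p was called higher at only 7.565 RPM, against 2.852 to 3.543 RPM, a call lost without day 10, on plain library totals, with DESeq2 and with limma.

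The miR-125b arms showed the widest exchange. miR-125b-5p, the common product of both precursors, stood at 10840 RPM at day 0 and at 20020, 14980, 11520 and 11410 RPM later, and lay within the range on totals without miR-21a-5p. miR-125b-1-3p stood at 597.7 RPM at day 0 and at 577.1, 249, 162.9 and 167.7 RPM later (edgeR adjusted p = 0.0745). It lay above the range, but day 0 and day 6 were nearly level in RPM. miR-125b-2-3p stood at 67.71 RPM at day 0 and at 292.5, 405.2, 594.4 and 543.7 RPM later (log2 difference -2.23 ± 0.50, edgeR adjusted p = 0.0219, lost without day 10 or day 24). The ratio of the first to the second was 8.83 at day 0 and 1.97, 0.614, 0.274 and 0.309 later, and neither holds fractional counts.

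**Figure D5:**
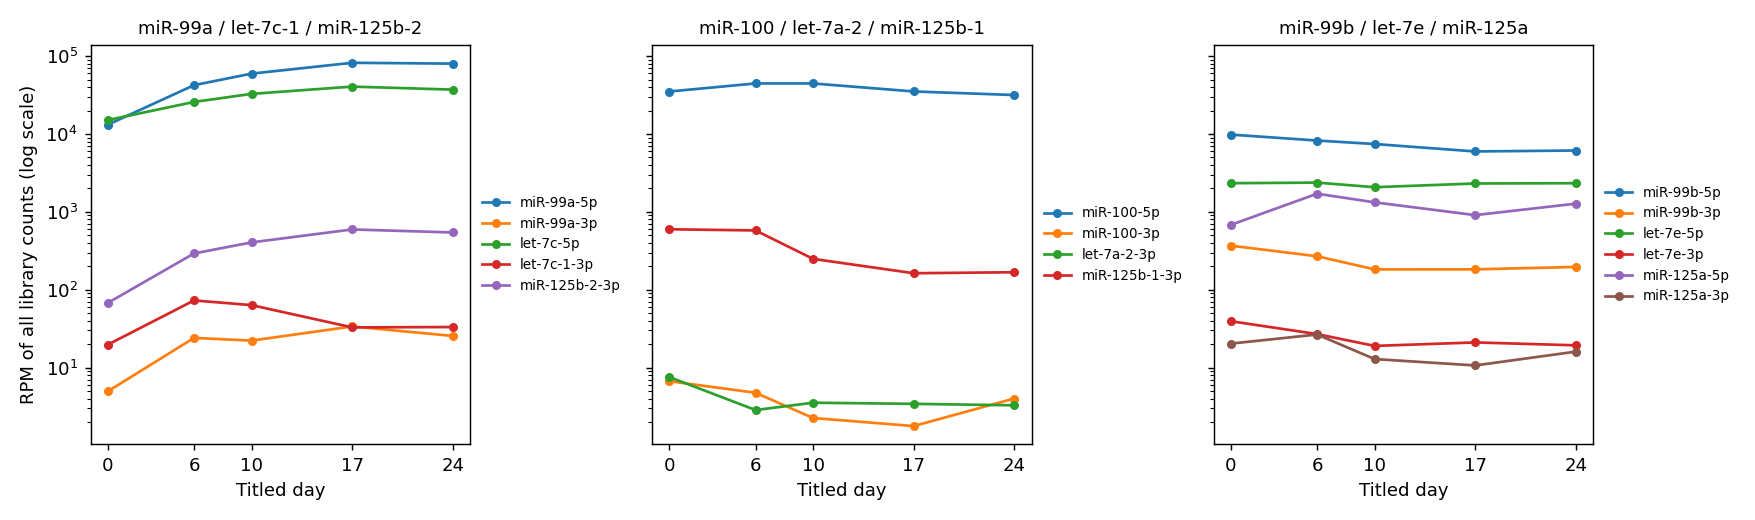
Lines give RPM on a log scale by titled day, 1 library per day, for the measured arms of 3 related clusters, with the miR-99a cluster left, the miR-100 cluster in the middle and the miR-99b cluster right. miR-125b-2-3p goes from 67.71 to 543.7 RPM from day 0 to day 24 in the left panel while miR-125b-1-3p goes from 597.7 to 167.7 RPM in the middle one.

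Of 42 seeds carried by 2 or more measured miRNAs with a RefSeq sequence, 16 had at least 2 members outside the range. In 3 of these all such members lay above, in 9 all below, and 4 had members on both sides: the 5p and the 3p arms of miR-99a and miR-99b, miR-30a-5p with miR-30c-5p, and miR-196a-5p with miR-196b-5p. Both arms of a precursor could be paired by name in 108 cases. This left out arms numbered by locus. Among those, miR-30c-2-3p and miR-16-2-3p lay above the range while miR-30c-5p and miR-16-5p lay below it. In the 108 pairs both arms lay above in 3 (miR-21a, miR-10a and miR-99b) and both below in 18. They lay on opposite sides in 1, miR-23b, whose 5p arm was called higher (15.38 RPM at day 0 against 7.658 to 11.67 RPM, edgeR adjusted p = 0.0488) while miR-23b-3p stood at 750.8 RPM against 1716 to 2040 RPM. The call of miR-23b-5p was lost without day 10, day 17 or day 24, and on plain library totals with and without miR-21a-5p. It was also lost without the count filter, with DESeq2 and with limma. In 43 pairs 1 arm lay outside, and in 43 neither did. Among the 30 clusters of precursors within 10 kb, 12 had at least 2 arms outside the range: all above in 1, all below in 7 and on both sides in 4. Beside these counts of seeds, pairs and clusters, 13.3% of all miRNAs lay above, 31.7% below and 45% on either side. The larger counts below are therefore no comparison of directions. The median GC content was 47.8% for the miRNAs above, 45.5% for those below and 50.0% for those on neither side, and the first base was U in 43.5, 43.8 and 39.4%. Of those above, 18 were 5p arms, 25 were 3p arms and 9 had no arm in their name. Of those below the counts were 59, 50 and 15, and of those on neither side 101, 100 and 14. These features were not tested.

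Lists by reported role held members on both sides. Over all miRNAs 13.3% lay above and 31.7% below, with 7.42% called higher and 7.16% called lower. Among 13 measured miRNAs reported to promote osteoblast differentiation, 2 (15.4%) lay above and 7 (53.8%) below, with a median log2 difference of -0.63. miR-21a-5p was called higher, and miR-218-5p, miR-335-5p and miR-101a-3p lower. miR-101a-3p, known to target the histone methyltransferase Ezh2, stood at 1015 RPM at day 0 and at 3608, 5832, 6528 and 7174 RPM later (log2 difference -1.99 ± 0.47, edgeR adjusted p = 0.0265, lost without day 10 or day 24). miR-101b-3p stood at 1931 RPM against 2589 to 3008 RPM and lay within the range once miR-21a-5p was left out. Among 20 measured miRNAs reported to restrain differentiation, 3 (15%) lay above and 7 (35%) below, with a median of -0.07, shares near those over all miRNAs. miR-206-3p, miR-30a-5p and miR-155-5p were called higher. miR-31-5p was called lower, at 1077 RPM at day 0 and 3827, 3098, 3538 and 2897 RPM later (log2 difference -1.08 ± 0.26, edgeR adjusted p = 0.0258, lost without day 10 or day 24 and on totals without miR-21a-5p).

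For other families the counts are read against the 13.3% above and 31.7% below over all miRNAs. Of 10 measured let-7 and miR-98 members 2 lay below and none above, and the summed level was 134900 RPM at day 0 and 186900 to 222500 RPM later. Without miR-21a-5p in the total the sum was 248000 RPM at day 0 and 234000, 243000, 251000 and 253000 RPM later, so day 0 lay inside the range. None was called. let-7i-5p, the most abundant of them, stood at 46800 RPM at day 0 and 60830 to 77520 RPM later, and was within the range without miR-21a-5p in the total. Of 5 measured miR-34 and miR-449 arms none lay outside on both totals, of 6 miR-29 arms 1 lay below, and of 4 miR-221 and miR-222 arms 1 lay below. None of these was called. Of 9 arms of miR-23, miR-27 and miR-24 listed, 4 (44.4%) lay below, miR-27b-3p being the most abundant at 11030 RPM at day 0 and 24530, 27210, 28610 and 29940 RPM later, again without passing the test. miR-143-3p, the most abundant miRNA after miR-21a-5p by mean level over the 5 libraries, stood at 87470 RPM at day 0 and 97120 to 117500 RPM later. It lay below those days in RPM, but above them without miR-21a-5p in the total, so its side depended on the total.

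Markers of other cell types were examined beside these results, and their part in them was not tested. The 7 striated muscle markers summed to 574.4 RPM at day 0 and to 212.6 to 217.4 RPM later. This was miR-206-3p, since the other 3 measured (miR-1a-3p, miR-133a-3p and miR-499-5p) lay below the range and miR-208a-3p and miR-208b-3p were at 0. Of the 7 blood cell markers only miR-486-5p passed the count filter, and their sum was 38.94 RPM at day 0 and 84.13 to 110.6 RPM later. The 5 nervous system markers, led by miR-128-3p, summed to 460.3 RPM and then to 328.9 to 405 RPM, with miR-124-3p and miR-137-3p at 0. Only 2 of them were measured, with miR-128-3p above the range and miR-9-5p below it. The 6 epithelial markers summed to 2.232 RPM and then to 3.543 to 5.47 RPM. The cartilage list lay at 18220 RPM at day 0 and 26000 to 28780 RPM later, but without miR-21a-5p in the total at 33500 RPM and then at 29300 to 35900 RPM, with day 0 inside the range. In it both arms of miR-455 were called lower: miR-455-5p stood at 1245 RPM at day 0 and at 3536, 3990, 4384 and 3420 RPM later (edgeR adjusted p = 0.0378), and miR-455-3p at 142.9 RPM and then at 608.1, 630.7, 574.1 and 408.8 RPM (edgeR adjusted p = 0.0219). Both calls were lost without day 10. That of miR-455-3p was also lost on totals without miR-21a-5p, and that of miR-455-5p without day 17, without day 24 or with a filter of 100 counts. miR-140-3p, the main cartilage miRNA, stood at 14510 RPM against 18250 to 21110 RPM, below the later days in RPM and above them on totals without miR-21a-5p.

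Several rare miRNAs stood furthest from the later days. Of these, miR-122-5p is named as the liver marker and the others were chosen after their values were seen. miR-122-5p stood at 71.18 RPM (287 counts) at day 0 and at 2.218, 6.442, 4.061 and 4.74 RPM later (log2 difference 4.55 ± 0.43, edgeR adjusted p = 0.000501), with 2.472 to 9.678 RPM in the calvaria libraries. miR-155-5p, an immune-cell miRNA encoded in Mir155hg, stood at 34.72 RPM at day 0 and at 2.852, 3.221, 2.284 and 1.459 RPM later (log2 difference 4.34 ± 0.35, edgeR adjusted p = 0.000501). miR-139-5p, from an intron of the phosphodiesterase gene Pde2a, stood at 176.3 RPM at day 0 and at 23.77, 11.27, 7.867 and 13.49 RPM later (log2 difference 4.21 ± 0.40, edgeR adjusted p = 0.000501). In each of these the later days lay far below day 0. miR-147-3p stood at 15.38 RPM against 2.03 to 4.754 RPM, and miR-877-3p at 8.185 RPM against 1.823 to 3.045 RPM, both called higher.

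In the other direction miR-184-3p had 1 count at day 0, or 0.248 RPM, and stood at 34.23, 40.26, 38.58 and 40.84 RPM later. On totals without miR-21a-5p the day 0 level was 0.0106 of that of the nearest later day (exact binomial 95% interval 0.000267 to 0.0605, counting error only). miR-5115 and miR-881-3p had no count at day 0, which allows up to 0.744 RPM, and stood at 2.899 to 7.106 RPM and 2.535 to 4.061 RPM later. Both were called lower, but neither with limma on log2(RPM + 10), miR-5115 not without day 10 and miR-881-3p not with DESeq2.

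At the limits of the rule, with a mean of 100 RPM or more, miR-98-5p (997.6 RPM at day 0, highest later day 1007 RPM) and miR-296-3p (443.7 against 447.1 RPM) fell just short of lying above. miR-125b-1-3p (597.7 against 577.1 RPM) and miR-10a-5p (7061 against 6076 RPM) lay just above. On the lower side, judged on totals without miR-21a-5p, miR-103-3p (1528 RPM at day 0, lowest later day 2462 RPM) and miR-320-3p (543.9 against 833.1 RPM) lay just below. miR-24-3p (5193 against 7975 RPM) and miR-5117-5p (110.1 against 175 RPM) lay just inside.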

How the data were processed

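Small RNA libraries were made with the NEBNext Small RNA kit, per the labels. The authors deposited estimated counts per mature arm and precursor, many of them fractional, and a second table of RPM, each value scaled to its library. cutadapt 0.9.5, Bowtie 0.12.7 and the mm10 genome are named without role or order, per the submitters' processing notes. Which miRBase release and quantifier were used is not stated here by any label or header. Every column, 8 in all, matched 1 sample by its title. MC3T3 column names give days 3 lower than the titles do; the titles were used.

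Here, counts were summed per mature miRNA, filtered at 10 counts in 2 of 5 libraries, rounded, and tested with the edgeR quasi-likelihood test (edgeR 4.0.16, R 4.3.3, TMM factors, Benjamini-Hochberg adjustment over all 391, threshold 0.05), day 0 against the 4 later libraries. Of the nonzero deposited values of the 5 libraries, before summing and filtering, 65.3% were whole. The procedure was also run on counts simulated without any change among the later days, so that run does not cover such change. Whether the later libraries' cultures were separate is given only as pools of 3, so p-values reflect only how these libraries vary. Intervals and limits (3 counts for a count of 0) cover counting error only, since reads carry no molecular identifiers. Alternatives were other totals and size factors, other filters, entries not summed, a linear day term, each later library left out, DESeq2 1.42.0 and limma 3.58.1 on log2 RPM with pseudocounts of 1 and 10.

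The members and the lists were chosen with earlier results of these data known. Named were miRNAs with 1% or more of any library, the 12 furthest outside the range on each side with a mean of 100 RPM or more and their other arms, up to 4 per list and direction by level, and those at the limits; others are marked as chosen after their values were seen, or were named because they were called or share a seed, precursor or cluster with one named. Of the 391 miRNAs, 297 had a RefSeq sequence. Hosts are from GENCODE M21.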

Additional observations from a re-analysis of the deposited data

Results flagged for a closer look

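Among the 90 named or called miRNAs, 7 had 1 later library far from the other 3 later libraries. The limit used marks about 1 in 20 groups of 4 replicates. These libraries are successive days and not replicates, so that rate cannot be applied to them. In 6 of the 7 miRNAs the library set apart was day 6. miR-128-3p stood at 368.2 RPM at day 6 and at 271.7 to 278.6 RPM on the other later days. miR-99b-3p stood at 269.1 RPM at day 6 against 182.6 to 196.2 RPM, miR-1964-3p at 55.14 RPM against 32.53 to 35.53 RPM, and miR-21a-3p at 17.43 RPM against 8.387 to 9.341 RPM. In these 4, day 6 lay between day 0 and the other later days. miR-30c-5p stood at 3326 RPM at day 6 against 2192 to 2373 RPM, and miR-322-5p at 219.3 RPM against 155.3 to 165.2 RPM. In both, day 6 lay further from day 0 than the rest. miR-450a-5p stood at 1244 RPM at day 17 against 956.1 to 1001 RPM.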

How the results depend on the processing

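No paired analysis was possible because day 0 has 1 library and the replicate numbers follow accession order. Against 29 higher and 28 lower calls at day 0, plain library totals gave 11 and 74, a linear day term 71 and 75, limma on log2(RPM + 1) 10 and 90, and limma on log2(RPM + 10) 11 and 67. No filter beyond a count above 0 gave 44 higher calls, and entries not summed gave 47. Leaving out 1 later library gave 11 (without day 10) to 54 (without day 6) higher calls and 7 to 55 lower calls. Against 52 miRNAs above the range, totals without miR-21a-5p alone gave 131, TMM scaling 119, a filter of 100 counts 18 and no filter 113. A margin of 1.5-fold left 16 above and 57 below, and a margin of 2-fold left 12 and 34. Totals with miR-21a-5p alone put 232 below instead of 124. Leaving out 1 later library gave 51 to 75 above and 124 to 142 below. The miR-21a-5p share was 45.55 to 45.56% in the alternatives. For 90 single miRNAs under 14 settings, 938 of 1223 values kept direction and call, 149 lost the call, 136 gained one and none reversed. The cause of these shifts was not tested, beyond the construction of each setting. At these depths counting intervals are narrow for abundant miRNAs, and day 0 has no replicate.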
